A study of Homo sapiens with 6 samples.

Results

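The genes described here encode SR proteins, heterogeneous nuclear ribonucleoproteins (hnRNPs) and the U2-associated factors that recognise the 3′ end of introns. They were chosen by symbol: protein-coding genes in GENCODE release 29 whose names start with SRSF, HNRNP, SF3A or SF3B, with TRA2A, TRA2B, U2AF1 and U2AF2. Of the 52 genes that fit, 46 had a row among the 18318 genes used, and 43 had enough reads to be tested among 12797 genes. HNRNPCL1, HNRNPCL2 and SRSF12 fell below that filter, and HNRNPH2, U2AF1, HNRNPCL3, HNRNPCL4, HNRNPA1P48 and HNRNPUL2-BSCL2 were not analysed here. The members counted at the lowest and the highest level in a library among those tested had 96 reads (HNRNPA1L2) and 11310 reads (HNRNPA1).

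SR proteins bind exonic enhancers through RNA recognition motifs, and their arginine-serine domains help to recruit the spliceosome. hnRNPs coat nascent transcripts and often oppose exon inclusion, so the balance of both families sets many alternative exons. The U2AF heterodimer marks the polypyrimidine tract and the 3′ splice site, after which the SF3A and SF3B complexes of the U2 snRNP (a small nuclear ribonucleoprotein) clamp the branch site. Many SR and hnRNP genes limit their own transcripts through alternative exons that trigger nonsense-mediated decay.

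The libraries were made from A375, an established human melanoma cell line, 3 after transfection with a pcDNA3.1 plasmid carrying wild-type SLNCR and 3 with the vector backbone. SLNCR is a long non-coding RNA that RefSeq lists as LINC00673, and the study set out to find the genes it regulates. Per the labels' protocols, the plasmid carried a puromycin resistance gene and a CAG promoter, which is active in most cell types. Both groups were transfected with Lipofectamine and grown for 48 h in 2 µg/mL puromycin, so every library comes from selected, transfected cells of a single line. Each library held 9287450 to 10822083 counts. SLNCR stood between 19.5 and 21.4 CPM (counts scaled to library size with TMM factors) with the empty vector and between 169.8 and 246.9 CPM with the SLNCR plasmid, so the labels match the targeted RNA. The labels name the cell type as epithelial. Of 9 epithelial markers in the table, 7 (CDH1, EPCAM, KRT1, KRT5, KRT14, DSG3 and TP63) had at most 6 reads in any library, CLDN4 had 34 to 54 and KRT10 had 196 to 293. Of 12 melanoma and neural crest markers in the table, AXL, CSPG4, PRAME, SOX9, MITF and SOX10 had between 105 and 8922 reads and NGFR 67 to 92, whereas the pigment cell genes MLANA, PMEL, TYRP1 and DCT had at most 16 and S100A1 at most 21. The labels call the libraries biological replicates without saying how the cultures were separated, so p-values measure the spread between these libraries. In these bulk samples, fewer cells of a type and less RNA per cell cannot be told apart.

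Members spanned a wide range of levels in A375 cells. Per kilobase of annotated exon, a scale that allows genes to be compared, HNRNPA1, a shuttling splicing repressor, was the most abundant at 215 CPM per kb with the empty vector. The poly(C)-binding protein gene HNRNPK followed at 175, and SRSF1, which encodes the founding SR protein, at 151. HNRNPAB stood at 126 and SRSF2 at 125. U2AF2, the large U2AF subunit, had 122 CPM per kb, the highest level in its class. The SF3 subunits, which work in fixed complexes, lay between 34.9 (SF3A2) and 97.8 (SF3B4) CPM per kb. At the low end of the tested members were HNRNPLL at 6.74, SRSF4 at 8.90, HNRNPA1L2 at 9.09 and HNRNPUL2 at 9.58 CPM per kb. Exon length here is the union of all annotated exons, retained introns included, so genes with long alternative transcripts are placed too low. HNRNPCL1 and HNRNPCL2, copies related to HNRNPC, had at most 6 and 5 reads, and SRSF12 had 1 read in 1 library.

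**Figure D1:**
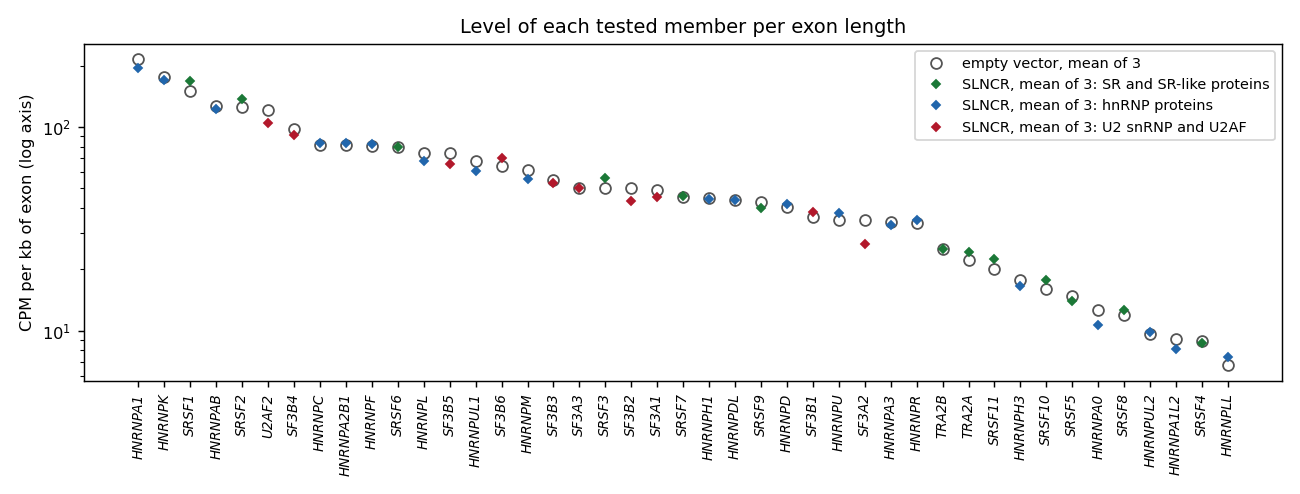
Mean level of each of the 43 tested members, in CPM per kilobase of annotated exon on a log axis, with the empty vector (open circles) and with SLNCR (diamonds, coloured by class). HNRNPA1 is highest and HNRNPLL lowest with the empty vector, and the diamonds lie close to the circles for most genes.

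The comparison of SLNCR with the empty vector asked which of these genes differ when SLNCR is overexpressed. Of the 43 tested members, 5 passed an adjusted p of 0.05 in edgeR, 1 higher and 4 lower. This is 11.6% of members, beside 16.5% of all tested genes (8.84% higher and 7.67% lower), so the share of members called was below the background. The median log2 fold change was -0.0086 over members and -0.0097 over all tested genes, with member values from -0.39 to 0.16. Values below 0 were found for 25 of the 43 members, beside 51.2% of all tested genes. The 95% interval of a member's log2 fold change, not adjusted for the number of genes tested, had a median half-width of 0.11. For most members a shift had to be larger than that to pass the adjusted threshold. SRSF3 at 0.16 passed, and SRSF1 at 0.15 and HNRNPA1 at -0.15 did not. Groups did not overlap for 17 of the 43 members, 6 higher and 11 lower, beside 38.9% of all tested genes (19.7% higher and 19.1% lower). The 5 calls rest on the choice of libraries. When empty vector replicate 1 or 2, or SLNCR replicate 1, was left out, 0 members passed in edgeR, although 6, 11 and 15 then had an unadjusted p below 0.05 (15 with all libraries, beside 34.8% of all tested genes). DESeq2 and limma-voom on all libraries called 4 and 6 members, and their counts over all genes are not given. Without SLNCR replicate 2, 4 members were higher and 8 lower, and without SLNCR replicate 3 HNRNPUL1 no longer passed while the other 4 did. Over all tested genes, 1 to 3366 passed when single libraries were left out, so counts also varied widely over the whole table.

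SF3A2, a zinc finger subunit of SF3A that lies next to the branch site (chr19:2236504-2248679, GRCh38), showed the lowest member fold change. It measured 121, 103 and 104 CPM in empty vector replicates 1, 2 and 3, and 85.1, 93.7 and 70.2 CPM in SLNCR replicates 1, 2 and 3. All SLNCR libraries lay below all empty vector libraries, with SLNCR replicate 3 the lowest. The mean went from 109 ± 9.97 to 83.0 ± 11.9 CPM (SD, n = 3 each), which is -0.39 in log2 with a standard error of 0.0926 (edgeR adjusted p = 0.0172). SF3A2 overlaps PLEKHJ1 on the opposite strand. As the sources do not say whether counting used strand, reads of overlapping genes are uncertain here and for the genes with such partners named further on.

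U2AF2, which binds the polypyrimidine tract (chr19:55654146-55674715), measured 521, 493 and 489 CPM with the empty vector and 432, 446 and 418 CPM with SLNCR. The groups were again apart, by more than the range within either. It stood at -0.21 in log2, standard error 0.0481 (edgeR adjusted p = 0.0147). SF3B2, the SF3B subunit that contacts pre-mRNA near the branch site (chr11:66050729-66069308), measured 500.1, 499 and 472 CPM with the empty vector and 425, 451 and 395 CPM with SLNCR. Every SLNCR value was lower, and SLNCR replicate 2 came nearest to the empty vector. It stood at -0.21 in log2, standard error 0.0531 (edgeR adjusted p = 0.0185).

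The other SF3 subunits did not pass. SF3B1, the large HEAT-repeat protein mutated in some leukaemias and uveal melanomas, measured 328, 337 and 330.2 CPM with the empty vector and 348, 342 and 355 CPM with SLNCR. Its libraries were separated in the direction opposite to SF3B2, at a log2 fold change of 0.070 (95% interval -0.028 to 0.17, edgeR adjusted p = 0.296). SF3B6, the small subunit that touches the branch point adenosine, stood at 0.12 (74.5, 76.4 and 80.7 CPM against 80.4, 85.8 and 86.1), with groups that overlapped narrowly. SF3A1 measured 322, 305 and 299 CPM and then 286, 289.5 and 288 CPM, a log2 fold change of -0.10 (edgeR adjusted p = 0.152). Its libraries were separated although the call was not reached, and SF3A1 overlaps CCDC157 on the opposite strand. SF3A3 measured 239, 236 and 240.5 CPM against 239, 242 and 231 CPM (95% interval -0.11 to 0.096). SF3B3, a scaffold of the complex, went from 687, 687 and 679 to 663, 654 and 656 CPM, at -0.058 on the log2 scale, with separated groups and a small difference. SF3B4 at -0.098 (223, 228 and 209 against 209, 205 and 201 CPM) and SF3B5 at -0.18 (55.5, 50.9 and 47.8 against 48.5, 42.8 and 45.4 CPM) overlapped between groups. Taking the 10 tested U2 and U2AF genes, 3 fell and 7 did not pass, beside 7.67% of all tested genes called lower and 16.5% called in either direction, and their median log2 fold change was -0.10.

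Because the SF3 proteins assemble in fixed numbers, their transcripts were also set against each other within each library; these pairs were chosen after the values were seen, and are given as a description. The log2 ratio of SF3A2 to SF3A3 was -0.99, -1.20 and -1.20 with the empty vector, and -1.49, -1.37 and -1.71 with SLNCR. The log2 ratio of SF3B2 to SF3B1 was 0.61, 0.56 and 0.52 with the empty vector, and 0.29, 0.40 and 0.15 with SLNCR. Both ratios were lower in every SLNCR library. The transcripts of each pair differ in GC content, at 66.6% for SF3A2 and 48.5% for SF3A3, and at 55.1% for SF3B2 and 41.0% for SF3B1 (longest coding transcripts).

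**Figure D2:**
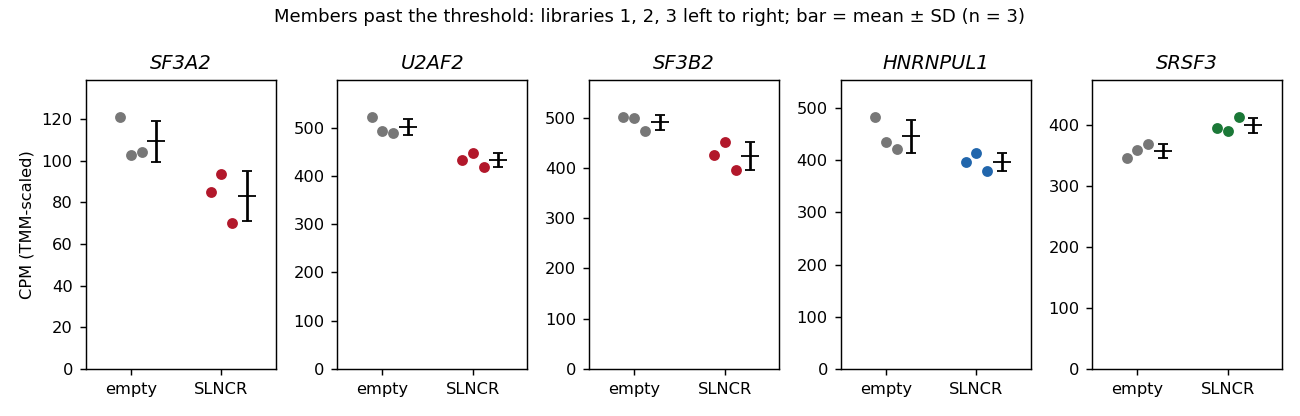
CPM (TMM-scaled, axis from 0) of the 5 members with an edgeR adjusted p below 0.05, with libraries 1, 2 and 3 from left to right in each group and bars for mean ± SD (n = 3). SF3A2, U2AF2, SF3B2 and HNRNPUL1 are lower, and SRSF3 higher, in every SLNCR library than in every empty vector library.

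Most SR protein genes had fold changes above 0 (8 of 13), and most U2 and U2AF genes had fold changes below 0 (8 of 10). Of all tested genes, 51.2% were below 0. At 40% to 45% GC, where the median SR gene lies, 2229 of 2860 genes were above 0. After the GC correction described further on, 11 of 13 SR genes and 6 of 10 U2 and U2AF genes were below 0. Of the 13 tested SR and SR-like genes, 1 rose and 12 did not pass, and the class median was 0.076. SRSF3, the smallest classical SR protein, which couples splicing to mRNA export (chr6:36594353-36605600), measured 346, 359 and 369 CPM with the empty vector and 396, 390.2 and 413 CPM with SLNCR. All SLNCR libraries were higher. The mean went from 358 ± 11.5 to 399.7 ± 11.8 CPM (SD, n = 3 each), and the difference was 0.16 in log2, standard error 0.0486 (edgeR adjusted p = 0.0359).

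SRSF1, SRSF2, SRSF10 and SRSF11 had fold changes of similar size that missed the threshold. SRSF11, an SR protein that works with U2AF, measured 156, 177 and 178 CPM and then 188, 185 and 197 CPM, at 0.16 (edgeR adjusted p = 0.0781). SRSF1 measured 497, 488 and 526 CPM and then 549.7, 525 and 604 CPM, at 0.15 (edgeR adjusted p = 0.0627). SRSF2, the other long-studied enhancer-binding SR protein, measured 359.6, 394 and 375 CPM and then 408, 400.2 and 436 CPM, at 0.14 (edgeR adjusted p = 0.0670). The groups of SRSF11 and SRSF2 were apart, and those of SRSF1 met at SLNCR replicate 2 and empty vector replicate 3. SRSF2 shares its locus with MFSD11 on the opposite strand. SRSF10, which acts as a repressor when dephosphorylated, measured 153, 167 and 174 CPM and then 173, 179.8 and 192 CPM, at 0.14 (edgeR adjusted p = 0.109). Its groups overlapped only between SLNCR replicate 1 and empty vector replicate 3.

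TRA2A and TRA2B, paralogues that bind purine-rich enhancers, differed in level and in spread. TRA2A measured 77.3, 77.9 and 77.8 CPM and then 78.5, 84.7 and 93.3 CPM, at 0.14 (edgeR adjusted p = 0.171), with most of the difference in SLNCR replicates 2 and 3. TRA2B measured 299, 295 and 298 CPM and then 302, 302 and 288 CPM, with a 95% interval of -0.10 to 0.10 for its log2 fold change. The shuttling SR protein gene SRSF7 stood at 0.022 (169, 188 and 189.8 against 181, 192 and 182 CPM). SRSF8, a copy of SRSF2 without introns, stood at 0.076 (45.2, 49.3 and 49.6 against 54.1, 48.1 and 49.5 CPM). Both overlapped between groups.

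The SRSF4, SRSF5 and SRSF6 proteins share a pair of RNA-binding domains and a long arginine-serine tail. SRSF6 measured 376, 367 and 360.3 CPM and then 376, 382 and 343 CPM, with a 95% interval of -0.11 to 0.11 for its log2 fold change. SRSF4 measured 77.6, 80.1 and 79.8 CPM and then 76.2, 77.1 and 79.1 CPM, at -0.031. SRSF5 measured 81.3, 85.4 and 71.9 CPM and then 72.1, 80.6 and 71.7 CPM, at -0.088 (edgeR adjusted p = 0.422). None of these 3 separated the groups. SRSF9, a short SR protein, was lower in each SLNCR library (167, 159 and 154 against 152, 154 and 142 CPM), at -0.10 (edgeR adjusted p = 0.215), and overlaps GATC on the opposite strand.

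Among the 20 tested hnRNP genes, 1 fell and 19 did not pass, with a class median of -0.024. HNRNPUL1, an SAF-A-like protein that also acts in the DNA damage response (chr19:41262496-41307598), measured 482, 435 and 421 CPM with the empty vector and 396, 415 and 380.2 CPM with SLNCR. SLNCR replicate 2 lay just under empty vector replicate 3, so the separation was narrow. It stood at -0.17 in log2, standard error 0.0556 (edgeR adjusted p = 0.0463). HNRNPUL1 overlaps TGFB1 on the opposite strand. It passed in 8 of 14 alternative analyses, while SF3A2, U2AF2, SF3B2 and SRSF3 each passed in 11.

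The other hnRNP genes did not pass the test. HNRNPA1 measured 1128, 1039 and 1115 CPM and then 1024, 1033 and 902 CPM, lower in each SLNCR library, at -0.15 (edgeR adjusted p = 0.0644). HNRNPA0, an mRNA-stability factor of the same subfamily, measured 122, 106 and 103 CPM and then 92.8, 106 and 80.7 CPM, at -0.24 (edgeR adjusted p = 0.0700). HNRNPA0 had the lowest fold change of the class, and its groups overlapped at SLNCR replicate 2. HNRNPA3 measured 198, 208 and 211 CPM and then 204, 215 and 181 CPM, at -0.036. HNRNPA2B1, a reader of RNA sorting signals, stood at 0.023, HNRNPC, which binds uridine tracts, at 0.026, and HNRNPK at -0.043. HNRNPA1L2 stood at -0.16 with the broadest interval of the members (-0.41 to 0.10).

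HNRNPU, a scaffold of nuclear RNA and chromatin, was higher in each SLNCR library (778, 784 and 801 against 830.3, 844 and 888 CPM), at 0.12 (edgeR adjusted p = 0.0767). HNRNPL, which binds CA-rich elements, was lower in each (525, 493 and 511 against 471, 471 and 445 CPM), at -0.14 (edgeR adjusted p = 0.0510), as was HNRNPM at -0.14. The HNRNPL paralogue HNRNPLL stood at 0.14. HNRNPD, which encodes the AU-rich element binding protein AUF1, stood at 0.048 and its relative HNRNPDL at -0.0064. The G-tract binding genes HNRNPF, HNRNPH1 and HNRNPH3 stood at 0.029, -0.012 and -0.097. HNRNPR, HNRNPAB and HNRNPUL2 stood at 0.046, -0.042 and 0.041. Many hnRNP genes have processed copies: GENCODE lists 75 pseudogenes named after HNRNPA1 and 16 after HNRNPA3, so the reads of HNRNPA1, HNRNPA3 and HNRNPA1L2 are uncertain between copies. HNRNPA2B1, HNRNPAB, HNRNPH3 and HNRNPU overlap counted genes on the opposite strand.

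The genes of each class were also added up within each library. Tested SR and SR-like genes summed to 2865 ± 53.6 CPM with the empty vector and 3032 ± 51.1 CPM with SLNCR (SD, n = 3 each). The U2 and U2AF genes summed to 3013 ± 59.8 CPM with the empty vector and 2805 ± 54.0 CPM with SLNCR (SD, n = 3 each). For both classes the 3 SLNCR sums lay outside the range of the 3 empty vector sums, on opposite sides. The hnRNP genes summed to 7721 ± 116 CPM with the empty vector and 7534 ± 216 CPM with SLNCR (SD, n = 3 each), with overlapping groups. HNRNPA1 contributed the most to the empty vector sum, at a mean of 1094 CPM, and HNRNPK followed at 895. The median deviation from the empty vector mean was -0.075, -0.094 and -0.11 in SLNCR replicates 1, 2 and 3 for the U2 and U2AF genes, and 0.033, 0.061 and 0.045 for the SR genes (log2 CPM). In the same libraries the mean deviation of 9 abundant nuclear and structural RNAs, read as a sign of RNA quality, was -0.19, -0.043 and -0.33. The part of RNA quality in these sums was not tested. Replicate 3 was lowest in both the RNA quality list and the U2 and U2AF genes, while replicates 1 and 2 stood in opposite order.

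**Figure D3:**
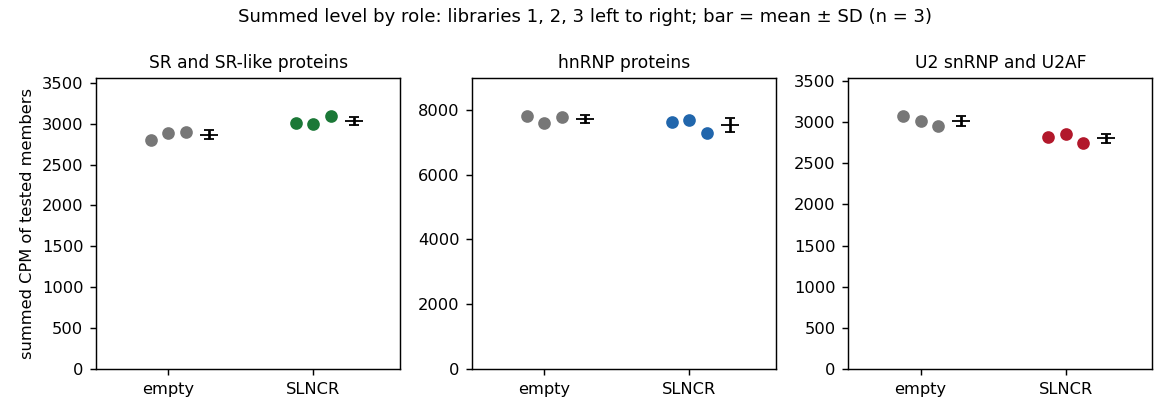
Summed CPM of the tested members of each class (axis from 0), with libraries 1, 2 and 3 from left to right in each group and bars for mean ± SD (n = 3). SR sums are higher and U2 and U2AF sums lower in all 3 SLNCR libraries, and hnRNP sums overlap.

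The classes differ in base composition, and fold changes in this table follow the GC content of transcripts. Across the 43 members, which are not independent replicates and share the same libraries, the log2 fold change correlated with the GC content of the longest transcript at r = -0.648 (Spearman's rho = -0.591), beside r = -0.637 across 12790 tested genes. The median GC content was 40.7% for SR genes, 42.6% for hnRNP genes and 49.7% for U2 and U2AF genes. SF3A2 at 66.6%, U2AF2 at 61.1% and HNRNPUL1 at 56.3% lay at the high end of the members, and SRSF3 at 39.3% near the low end. Members below 40% GC had the following values: 1 of 12 was called, with a median log2 fold change of 0.047, where 33.5% of all tested genes in that range were called higher at a median of 0.21. Between 40% and 45% GC, the median was -0.0064 over 15 members and 0.12 over all genes. At 50% and over, 3 of 9 members were lower at a median of -0.14, beside 16.3% and -0.16 for all genes. These shares are a description of the list, with no test of the difference.

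**Figure D4:**
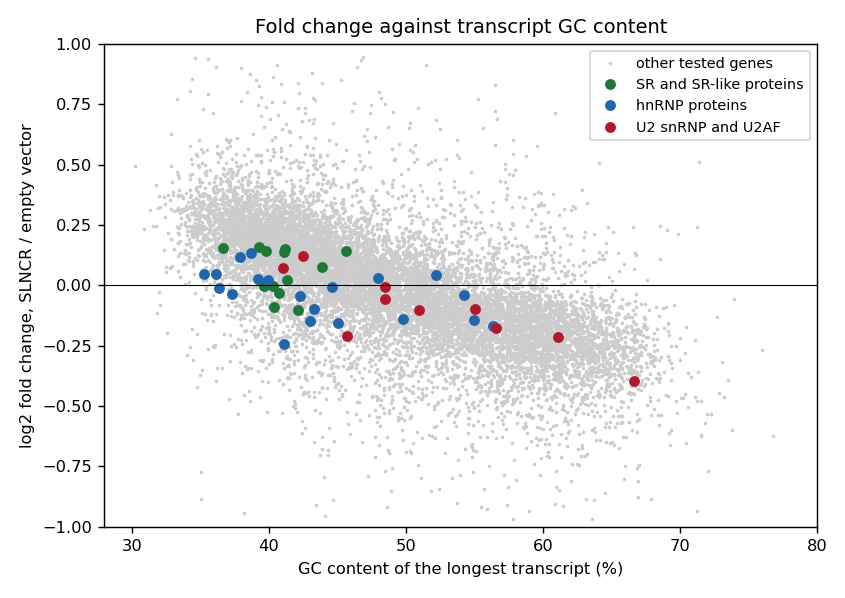
Log2 fold change (SLNCR over empty vector) against the GC content of the longest transcript in percent, for tested genes (grey, those within 1 on the log2 scale) and members coloured by class. Members follow the downward trend, and below 45% GC their medians lie under those of all tested genes.

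The comparison was therefore repeated after fitting and subtracting the GC trend of every library. With the GC content of the longest transcript, 0 members passed in edgeR, beside 0.0156% of all tested genes, and 18 members had an unadjusted p below 0.05. Of these 18, 17 were lower and 1 higher, beside 7.66% and 7.46% of all tested genes. The corrected log2 fold change was below 0 for 34 of the 43 members, and for 49.5% of all tested genes. Its median was -0.072 over members and 0.0015 over all tested genes. By class the medians were -0.15 for hnRNP, -0.067 for SR and -0.034 for U2 and U2AF genes. Of the 5 called members, SF3A2 moved to -0.099, U2AF2 to 0.0064, HNRNPUL1 to -0.020 and SRSF3 to -0.019, while SF3B2 stood at -0.25 (edgeR adjusted p = 0.0573 after correction). Across members the corrected values rose with GC content (r = 0.463 over the same 43 genes).

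The correction depends on which transcript stands for a gene. In 7 of the 43, the longest coding transcript differs from the longest transcript of any kind by more than 5 percentage points of GC. SF3B2 has 45.7% GC by the longest transcript and 55.1% by the longest coding transcript, HNRNPH1 36.3% and 51.6%, SRSF4 40.7% and 52.2%, SRSF5 40.4% and 49.0%, and SRSF9 42.1% and 52.3%. When the correction used coding transcripts, a choice made after the data were seen, SF3B2 went from -0.25 to -0.088 and HNRNPH1 from -0.24 to 0.046. SRSF9 went from -0.22 to -0.029, SRSF5 from -0.24 to -0.073 and SRSF4 from -0.18 to 0.039. Again 0 members passed in edgeR, beside 0.0156% of all genes, and 13 had an unadjusted p below 0.05, of which 12 were lower and 1 higher (7.09% and 7.17% of all genes).

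With either measure of GC content, several low-GC hnRNP and SR genes had negative corrected values. HNRNPC stood at -0.15 and -0.16 (edgeR adjusted p = 0.0609 and 0.0550), and HNRNPK at -0.16 and -0.17 (edgeR adjusted p = 0.0775 and 0.0704). HNRNPA0 stood at -0.38 and -0.39, HNRNPA1 at -0.25 and -0.26, HNRNPA3 at -0.24 and -0.25, HNRNPH3 at -0.19 and -0.27, and HNRNPR at -0.20 and -0.21. Among SR genes, SRSF6 stood at -0.17 and -0.18, TRA2B at -0.16 and -0.12, and SRSF7 at -0.11 and -0.13. With coding transcripts, 6 of 20 hnRNP and 4 of 13 SR genes were lower at an unadjusted edgeR p below 0.05, beside 7.09% of all genes. None of them passed with all 6 libraries in the fit without a replicate block. With coding transcripts the class medians were -0.079 for hnRNP, -0.029 for SR and -0.040 for U2 and U2AF genes, against 0.00091 over all genes. SRSF2 and HNRNPUL2 were the members furthest above 0 with either measure, SRSF2 at 0.096 and 0.090 and HNRNPUL2 at 0.12 and 0.11. The number of members passing after correction by the longest transcript depends on the libraries. Without SLNCR replicate 2, 13 were lower, and 5 without SLNCR replicate 3. When any other single library was left out, 0 passed. The share of all genes passing in these corrected fits is not given, so these counts cannot be set against a background.

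**Figure D5:**
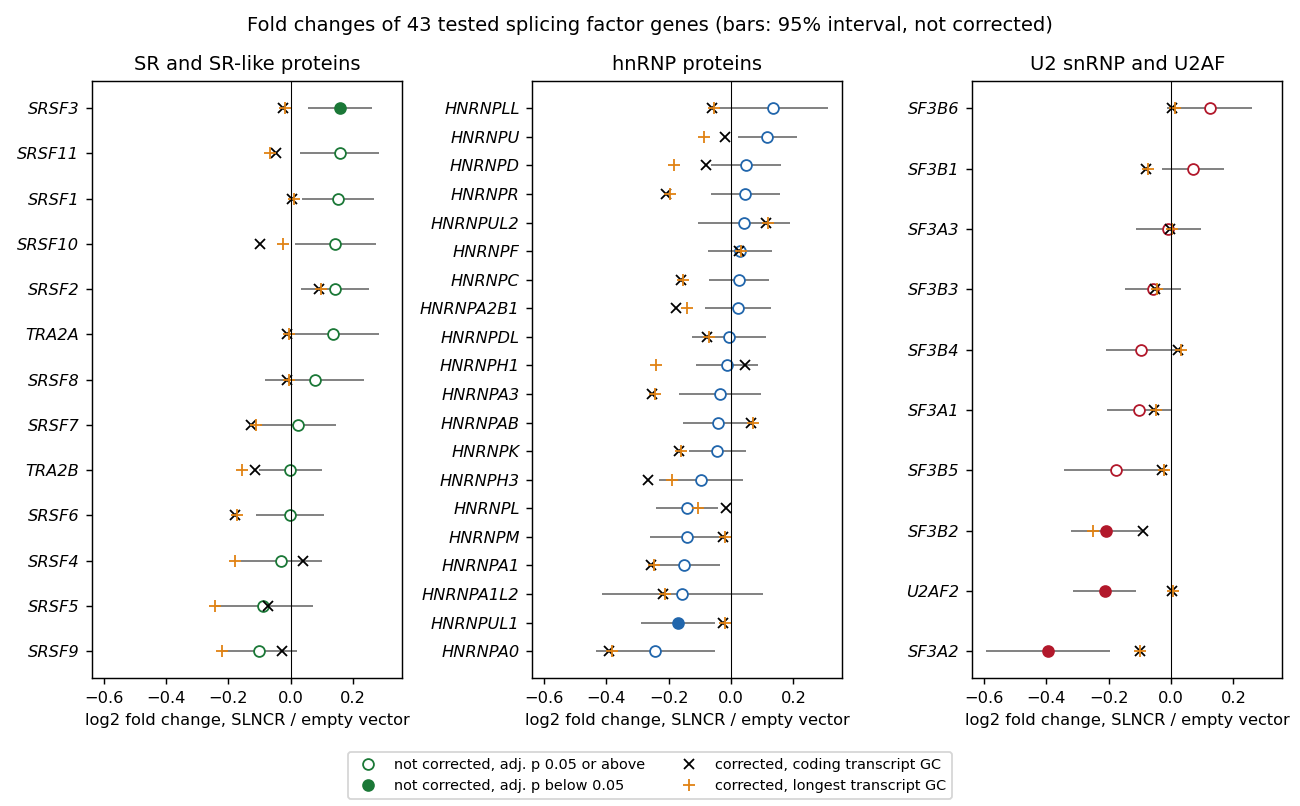
Log2 fold change of each tested member by class, with the uncorrected value and its 95% interval (circle, filled where the edgeR adjusted p is below 0.05) and the values corrected for the GC content of the longest transcript (plus) or the longest coding transcript (cross). Values corrected by either measure for SF3A2, U2AF2, HNRNPUL1 and SRSF3 lie nearer to 0, and the 2 corrections disagree for SF3B2, HNRNPH1, SRSF4, SRSF5 and SRSF9.

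Promoters were read for shared words, because E2F1 is the factor named with SLNCR in the study's title. The other reason was that 8 of 10 U2 and U2AF genes lay below 0 before GC correction. After correction by the longest transcript, 6 of 10 did, beside 49.5% of all tested genes. RefSeq promoters (GRCh38.p14, 250 bases before to 50 after the start) were found for 39 of the 43 tested members and for 9959 tested genes. They had a median GC content of 64.0% for members and 65.0% for all tested genes. Both strands were searched for E2F words (TTTCCCGC or TTTGGCGC), an ETS word (CCGGAAGT), the NRF1 core (GCATGCGC), the cyclic AMP response element (TGACGTCA), and the CCAAT, GC and TATA boxes; matches of different words may overlap, and the words were chosen after the counts had been seen. The ETS word, bound by ETS-family factors such as GABPA, was in 10 of 39 member promoters (25.6%), beside 8.79% of all. It was in 7 of the 9 U2 and U2AF promoters read and in 3 of the other 30. The E2F words were in 4 of 39 member promoters (10.3%), beside 3.81% of all. The letters CCAAT were in 38.5% of member promoters and 36.8% of all. The GC box, searched as GGGCGG, was in 69.2% of member promoters and 69.5% of all. The TATA box, searched as TATAAA, was in 12.8% of member promoters and 5.6% of all. The NRF1 core was in 5.13% and 5.4%. The cyclic AMP response element was in 0 of 39 member promoters and in 3.24% of all. A match is a run of letters and does not show binding.

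The ETS matches of the U2 and U2AF genes are shown because 7 of the 9 promoters read in that class hold the word, against 8.79% of all promoters. The GC box was in 7 of these 9 as well, and in 69.5% of all. Each line gives 30 bases in the direction of the gene, with the match in capitals (CCGGAAGT, or its reverse complement where the word lies on the other strand).
SF3A1 (chr22:30356925-30356954, - strand, match 49 to 42 bases before the start): aggggacggtcCCGGAAGTgcgccagtcgt
SF3A2 (chr19:2236804-2236833, + strand, match 9 to 2 bases before the start): tctcatttgccCCGGAAGTgctttctttgc
SF3A3 (chr1:37990073-37990102, - strand, match 69 to 62 bases before the start): agtcccggggcACTTCCGGcactcgcggaa
SF3B2 (chr11:66052300-66052329, + strand, match 53 to 46 bases before the start): atacggcgccaCCGGAAGTtccggcaagtg
SF3B4 (chr1:149927811-149927840, - strand, match 26 to 19 bases before the start): ccgtcttcgccCCGGAAGTggaagtcgtgc
SF3B6 (chr2:24076467-24076496, - strand, match 159 to 152 bases before the start): cggtacagagcCCGGAAGTgtcttggactc
U2AF2 (chr19:55654994-55655023, + strand, match 30 to 23 bases before the start): gccggcggcggCCGGAAGTagccgaagcca

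SF3A2, SF3B2 and U2AF2, the called members of the class, carry the ETS word. So do 4 members of the class that were not called, SF3A1 at -0.10, SF3B4 at -0.098, SF3A3 at -0.0086 and SF3B6 at 0.12 in log2. The class members read without the word were SF3B1 at 0.070 and SF3B5 at -0.18, neither of them called. Outside it, HNRNPD, SRSF4 and SRSF5 held the word, at log2 fold changes of 0.048, -0.031 and -0.088. After correction by the longest transcript's GC content, SF3A2, SF3B2 and U2AF2 stood at -0.099, -0.25 and 0.0064. SF3A1, SF3B4, SF3A3 and SF3B6 then stood at -0.047, 0.030, 0.0040 and 0.012, and SF3B1 and SF3B5 at -0.072 and -0.022. HNRNPD, SRSF4 and SRSF5 then stood at -0.18, -0.18 and -0.24. With coding transcripts, SF3B2, HNRNPD, SRSF4 and SRSF5 stood at -0.088, -0.081, 0.039 and -0.073.

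The E2F matches are shown as the sequences nearest to the study's question. The capitals mark TTTCCCGC or TTTGGCGC, or the reverse complement.
SF3B1 (chr2:197435089-197435118, - strand, match 79 to 72 bases before the start): gcgcgctcccgTTTGGCGCacgcgcagagt
SRSF10 (chr1:23980428-23980457, - strand, match 119 to 112 bases before the start): ctggtgttctcGCGGGAAAgaaccgttgcg
TRA2B (chr3:185938186-185938215, - strand, match 190 to 183 bases before the start): gacacgctagcTTTCCCGCctcatagaggc
HNRNPLL (chr2:38603084-38603113, - strand, match 174 to 167 bases before the start): gcccggtcgacTTTCCCGCccctgccaata

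None of these 4 genes passed the test. SF3B1, SRSF10, TRA2B and HNRNPLL had log2 fold changes of 0.070, 0.14, -0.0017 and 0.14, with edgeR adjusted p of 0.296, 0.109, 0.979 and 0.252. After correction by the longest transcript's GC content, they stood at -0.072, -0.024, -0.16 and -0.053. With coding transcripts, they stood at -0.080, -0.099, -0.12 and -0.060.

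Other parts of the splicing machinery were read from 11 lists of 160 genes in all. Of 159 tested, 17 were higher, 16 lower and 126 did not pass, or 20.8% called beside the 16.5% of all genes, with a median log2 fold change of 0.0015. The higher genes had a median GC content of 37.8% and the lower ones 60.4%. After correction for the longest transcript's GC content 0 of them passed in edgeR, and 45 had an unadjusted p below 0.05 (15.1% of all tested genes did). Before correction, 0 were called once any of empty vector replicates 1 and 2 or SLNCR replicate 1 was left out. Without SLNCR replicate 2, 24 were higher and 28 lower. Over all tested genes, 1 to 3366 passed when single libraries were left out.

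Of 8 U1 snRNP genes, which define the 5′ splice site, 1 rose and 1 fell. SNRNP70 fell, at -0.35 (edgeR adjusted p = 0.0137), and SNRPA stood at -0.10. After correction by the longest transcript's GC content, SNRNP70 stood at -0.10 and SNRPA at 0.075. Of 8 Sm core genes, 0 passed in edgeR, although 3 were lower at an unadjusted p below 0.05 and DESeq2 and limma-voom each called 2 lower. SNRPB, SNRPD2 and SNRPG stood at -0.31, -0.26 and -0.21. Of 13 other U2 and branch site factors, 2 rose and 2 fell, among them the U2AF2-like factor PUF60 at -0.29, CHERP at -0.29 and U2SURP at 0.24. PUF60 and CHERP have 62.6% and 61.1% GC and U2SURP 36.2%, and after correction the 3 stood at -0.054, -0.078 and 0.0026.

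Of 23 tri-snRNP and LSm genes, 1 rose and 4 fell. SART1, which recruits the tri-snRNP, fell by 0.51 on the log2 scale, LSM4 by 0.34 and PRPF6 by 0.21 (edgeR adjusted p = 0.0147, 0.0185 and 0.0195). Corrected for the longest transcript's GC content, they stood at -0.31, -0.15 and -0.054. In the Prp19 complex and catalytic step group, 4 of 24 rose and 1 fell. The prolyl isomerase gene PPIL1 rose by 0.31 and CWC22, which brings the exon junction complex to spliced mRNA, by 0.29, and XAB2 fell by 0.31 on the log2 scale. The same correction gave 0.26 for PPIL1, 0.13 for CWC22 and -0.092 for XAB2. The minor spliceosome, which removes a rare class of introns, had 1 of 8 higher (ZCRB1 at 0.25, edgeR adjusted p = 0.0465), with SNRNP35 at -0.37 and SNRNP48 at 0.21.

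Genes that act on SR proteins and hnRNPs were examined next. Of 10 kinases and import receptors, 1 rose and 9 did not pass: TNPO1, the import receptor of HNRNPA1 and related proteins, stood at 0.22 (edgeR adjusted p = 0.0159). CLK1 and CLK4, kinases that release SR proteins from speckles, stood at 0.26 and 0.40 (edgeR adjusted p = 0.0909 and 0.0994). After correction by the longest transcript's GC content, TNPO1 stood at 0.00015, CLK1 at 0.022 and CLK4 at 0.17. Of 15 SR-related genes, 2 rose and 3 fell, with BCLAF1 at 0.27, SCAF1 at -0.37 and the speckle scaffold SRRM2 at -0.18. The same correction took BCLAF1 to 0.040, SCAF1 to -0.040 and SRRM2 to -0.028. In the exon junction complex, 0 of 5 passed in edgeR (1 lower at an unadjusted p below 0.05, and 0 with DESeq2 or limma-voom), with its helicase EIF4A3 at -0.21, RBM8A at 0.12 and MAGOH at 0.039. Among 10 nonsense-mediated decay factors 1 fell, UPF1, at -0.25 (edgeR adjusted p = 0.0375), with UPF3A at -0.24 and SMG9 at -0.17. Of 35 tested regulators of splice site choice outside these families, 5 rose and 4 fell. The muscleblind gene MBNL1 rose by 0.30, TIA1 by 0.30 and PTBP3 by 0.26 (edgeR adjusted p = 0.0137, 0.0159 and 0.0174), and after GC correction they stood at 0.13, 0.077 and 0.034.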

How the data were processed

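RNA was sequenced in 6 libraries of A375 cells. The authors deposited raw counts of reads per gene. The submitters' processing notes name cutadapt, STAR, DESeq2 and GRCh38. The counting tool, its annotation and its use of strand were not given in the sources used here. Left out were 1857 rows naming no gene (2.15% to 2.59% of counts) and 63 rows repeating a neighbour's counts (0.611% to 0.745%).

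The groups were tested in edgeR 4.0.16 under R 4.3.3 (robust two-sided quasi-likelihood test, TMM, filterByExpr), and p-values were adjusted by Benjamini and Hochberg's method over 12797 genes. CPM is TMM-scaled. Symbols, lengths and GC content came from GENCODE release 29. For the GC correction, every library's deviations were fitted by loess (span 0.5, degree 2) on genes with a mean log2 CPM above 1 (prior count 2). Alternatives used DESeq2 1.42.0, limma-voom (limma 3.58.1), other scalings, filters and thresholds, a replicate block, and omission of single libraries. The fits were run on simulated data with log2 changes of 0.5 and 1 in either direction. These are larger than any member's change with all libraries, so that run does not cover changes of the size seen here. Libraries of a group differed by more than sampling noise (chi-square per degree of freedom 1.74 to 6.58).

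Members and lists were chosen with earlier results of these data known. Library values are given for called members, the SRSF, TRA2, SF3 and U2AF genes, the 5 largest GC-corrected changes and, chosen after their values were seen, HNRNPU and HNRNPL. In the other lists up to 3 genes with the smallest adjusted p are named; 1 gene of these lists is not reported here.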

Additional observations from a re-analysis of the deposited data

How the results depend on the processing

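With an adjusted p of 0.01 in place of 0.05, 0 members were higher and 0 lower, and 2 of all genes passed in edgeR; at 0.10 these numbers were 5, 8 and 3642. Without a filter on low counts 10 members passed, of which 4 were higher. Leaving out single libraries gave 0 to 4 members higher, 0 to 8 lower, 1 to 3366 of all genes, 0 to 24 other splicing genes higher and 0 to 28 lower. After GC correction it gave 0 to 13 members lower and a member median of -0.11 to -0.061. DESeq2 and its size factors each called 4 members, without HNRNPUL1. Upper quartile factors, a stricter filter and limma-voom each called 6, with HNRNPL added. Numbers of all genes passing are not given for these settings or for the fit without a filter. These member counts therefore cannot be set against a background. Whether the shared replicate numbers pair the libraries cannot be told from so few libraries. Same-numbered deviations correlated at 0.13, -0.00937 and 0.323. SLNCR replicates 1 and 3 correlated best with the empty vector replicate of the same number, and SLNCR replicate 2 with empty vector replicate 1 (0.297). With a replicate block, 6 members were higher and 8 lower, 3523 of all genes passed and 28 other splicing genes were lower. With the block and GC correction, 14 members were lower. Counts over all genes are not given for the corrected alternatives. Using coding transcripts for the GC correction reversed HNRNPH1, from -0.24 to 0.046, and SRSF4, from -0.18 to 0.039. In the other alternatives followed here, directions reversed only for fold changes near 0. Without a filter the values were 0.00875 for HNRNPDL, 0.00298 for HNRNPH1, 0.00652 for SF3A3, 0.0130 for SRSF6 and 0.0135 for TRA2B. SRSF6 and TRA2B were also positive with DESeq2's size factors (0.00165 and 0.00209) and with DESeq2 (0.00347 and 0.00393), and GC-corrected U2AF2 was -0.00136 with a length term. Leaving out single libraries gave -0.00575 to 0.0711 for HNRNPA2B1, -0.0926 to 0.0316 for HNRNPA3, -0.0324 to 0.0381 for HNRNPDL, -0.0357 to 0.00854 for HNRNPH1, -0.0227 to 0.0126 for SF3A3, -0.0313 to 0.0452 for SRSF6, -0.0297 to 0.0533 for SRSF7, -0.0137 to 0.0224 for TRA2B, and after GC correction -0.0386 to 0.0175 for HNRNPUL1 and -0.0161 to 0.0192 for U2AF2. The cause of these changes was not tested.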

Other observations

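Some genes of the other splicing lists kept most of their difference after correction for the GC content of the longest transcript. They were picked after their values were seen, and none passed after that correction. Values corrected by coding transcripts are not given for them. PPIL1, an isomerase of the activated spliceosome, measured 496, 413 and 504 reads with the empty vector and 656, 623 and 575 with SLNCR, and its log2 fold change went from 0.31 to 0.26 (edgeR adjusted p = 0.0938 after correction). The LSm ring subunit gene LSM3 went from 0.23 to 0.21 (edgeR adjusted p = 0.134 after correction). SART1 went from -0.51 to -0.31 (edgeR adjusted p = 0.0988 after correction). The nonsense-mediated decay factor gene UPF3A went from -0.24 to -0.36 (edgeR adjusted p = 0.0623 after correction). EIF4A3 went from -0.21 to -0.25 (edgeR adjusted p = 0.112 after correction).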
